A study of Homo sapiens with 6 samples.

Results

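The enzymes and cofactors that write, copy and remove DNA methylation were examined in A549 cells after knockdown of BAP18. These are 9 genes, DNMT1, DNMT3A, DNMT3B, UHRF1, UHRF2, HELLS, TET1, TET2 and TET3, found by symbol among the 35474 genes of the count table. A549 cells are an established line from a human lung adenocarcinoma, and BAP18 is a chromatin-associated protein encoded by C17orf49. Cells were transfected with siRNA targeting BAP18 (siBAP18) or with a non-specific siRNA (siCtrl) and collected at 48 h, with 3 libraries in each group and no other treatment in either. The labels describe the libraries of a group as biological replicates without saying how they were separated, and they do not state which of the study's BAP18 siRNAs was used. All 9 genes passed the filter on low counts, so that none was left out of the 20776 genes tested.

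Library totals ranged from 46035635 to 53657450 counts in siCtrl and from 42094524 to 56548620 in siBAP18, where replicate 3 was the shallowest. The target C17orf49 was counted 743, 751 and 705 times in siCtrl and 120, 137 and 108 times in siBAP18 (log2 fold change −2.65, adjusted p = 7.31e-16). Adjusted p-values come from the quasi-likelihood test of edgeR and were adjusted by the Benjamini-Hochberg method over all genes tested, and a gene is said to have risen or fallen at an adjusted p under 0.05. CPM values are counts divided by the TMM-scaled library size in units of 1e6, with the SD over 3 libraries. The 9 epithelial and A549 markers checked were all expressed. In siBAP18, 8 of them fell (median log2 fold change −0.41), against 25.1% of all genes tested. The alveolar markers SFTPB, SFTPC and NKX2-1 held at most 8 counts in any library. Of the markers of other cells, HBB and HBA1 held at most 2 counts, VWF at most 6, CDH5 at most 36 and PECAM1 at most 45. CD68, a lysosomal protein of macrophages that other cells also express, held 2893 to 3649 counts in siCtrl and 6422 to 7400 in siBAP18. CD68 rose (log2 fold change 1.04), PECAM1 fell (−1.53) and CDH5 rose (1.10), and the part of these markers in the results below was not tested.

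In mammals, methyl groups sit mainly on the cytosines of CpG sites, and the pattern must be copied each time the DNA is replicated. UHRF1 recognizes CpG sites methylated on a single strand and brings in DNMT1, which methylates the new strand, while HELLS is a chromatin remodeler that opens nucleosomal DNA to this machinery. DNMT3A and DNMT3B place methylation on unmethylated sites, and the TET enzymes oxidize methylated cytosine, a step toward its removal. DNMT1, UHRF1 and HELLS are best known in dividing cells, where their transcripts are made mostly around S phase.

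After BAP18 knockdown, 6 of the 9 genes fell, 1 rose and 2 did not pass the test. Among all genes tested, 25.1% fell and 24.5% rose. The genes that fell were UHRF1, HELLS, TET1, DNMT1, TET2 and DNMT3B, TET3 rose, and DNMT3A and UHRF2 did not pass. With the study's added threshold of an absolute log2 fold change over 1, UHRF1, HELLS and TET1 were called lower, against 3.74% of all genes, and 0 members were called higher, against 4.72%. The median log2 fold change was −0.52 over the 9 genes and 0.0010 over all genes. By CPM, the 3 siBAP18 libraries lay wholly below the 3 siCtrl libraries for 5 members, as for 29.0% of all genes, and wholly above them for 1 member, as for 27.6%.

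**Figure D1:**
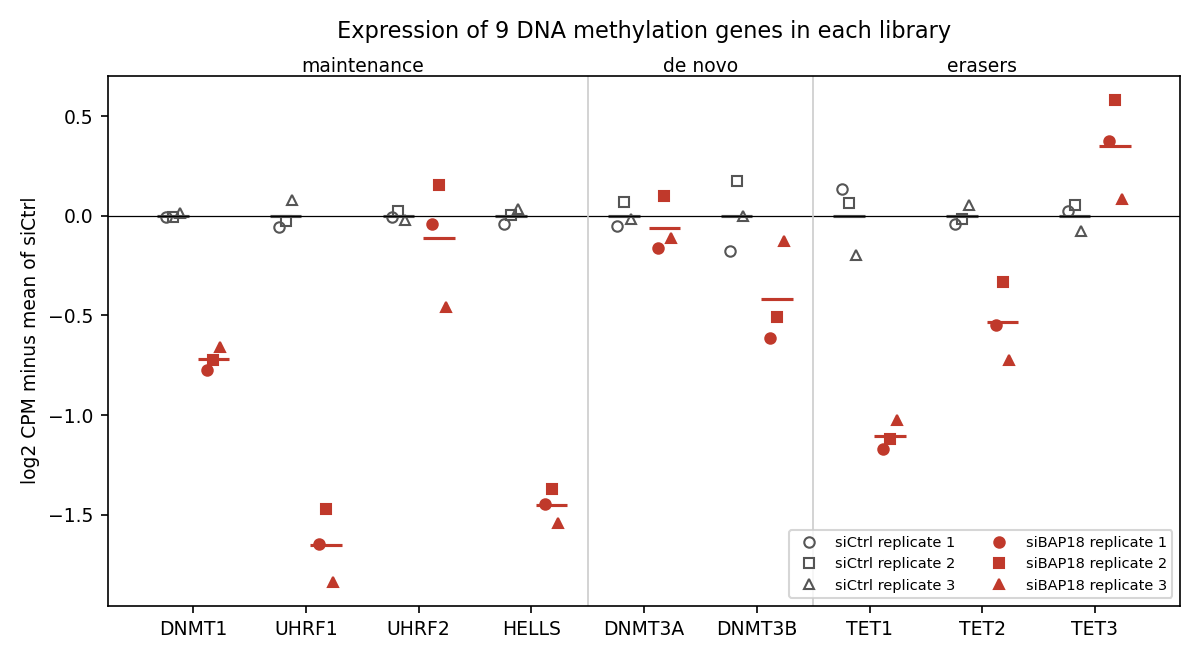
Log2 CPM of each of the 9 genes in each library, minus the mean of the 3 siCtrl libraries. Open grey symbols are siCtrl libraries, filled red symbols are siBAP18 libraries and short lines are group means. UHRF1, HELLS, DNMT1, TET1 and TET2 lie below siCtrl in every siBAP18 library, TET3 lies above it, and the groups overlap for UHRF2, DNMT3A and DNMT3B.

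UHRF1, the reader of hemimethylated CpG sites, lies at chr19:4903080-4962154 on the + strand of GRCh38. In siCtrl it was counted 2631, 2348 and 2535 times, and in siBAP18 892, 1081 and 582 times. Every siBAP18 library was far below every siCtrl library, and siBAP18 replicate 3 was the lowest also after scaling. Expression fell from 51.4 ± 2.51 to 16.4 ± 2.08 CPM, with a log2 fold change of −1.64 ± 0.0829 (standard error) and an adjusted p of 2.94e-14. Only 0.563% of all genes tested had a lower log2 fold change.

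HELLS, at chr10:94501434-94613905 on the + strand, changed almost as much. Its counts were 2154, 1947 and 1995 in siCtrl and 830, 941 and 579 in siBAP18, with a narrow spread within each group after scaling. Expression fell from 41.7 ± 1.10 to 15.2 ± 0.915 CPM, with a log2 fold change of −1.45 ± 0.0741 (standard error) and an adjusted p of 3.74e-14. A long noncoding gene on the same strand, RP11-119K6.6, shares 438 exonic bases with HELLS, which is 4.32% of its listed length. It held 15 to 36 counts in any library.

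DNMT1, the maintenance methyltransferase, lies at chr19:10133345-10231286 on the − strand and was the most abundant of the 9 genes. It held 13151, 11513 and 11712 counts in siCtrl and 7898, 8796 and 6387 in siBAP18. The libraries of each group lay close together, at 247.3 to 250.6 CPM in siCtrl and 145.1 to 157.6 CPM in siBAP18. Expression in siBAP18 was 60.8% of that in siCtrl, with a log2 fold change of −0.72 ± 0.0649 (standard error) and an adjusted p of 1.25e-09. DNMT1 thus passed the test on p but not the threshold on the fold change. It shares 69 exonic bases, 0.704% of its length, with S1PR2, which held 8 to 22 counts.

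UHRF2, a paralog of UHRF1 that does not take its place in maintenance, lies at chr9:6413151-6507054 on the + strand. In siCtrl it had 722, 643 and 628 counts, and 720, 886 and 402 in siBAP18. The siCtrl libraries were nearly equal at 13.4 to 13.8 CPM, whereas the siBAP18 libraries spread from 9.92 to 15.2 CPM, on both sides of them. The log2 fold change was −0.082 (95% interval −0.30 to 0.14, adjusted p = 0.556). Without siBAP18 replicate 3, the lowest library, it was 0.065 (adjusted p = 0.546).

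The fall of the first 3 of these genes was set beside that of 41 S-phase genes, a list in wide use from which UHRF1 and HELLS were left out. Of these, 39 fell and 0 rose, against 25.1% and 24.5% of all genes tested, with a median log2 fold change of −1.05. The mean log2 CPM of the list, relative to siCtrl, was −0.95, −0.90 and −1.02 in siBAP18 replicates 1, 2 and 3. UHRF1 fell further than 39 of the 41 genes and HELLS further than 37, since 2 and 4 of them had a lower log2 fold change. DNMT1 fell less than most of the list, since 30 of the 41 had a lower value. For the other members that fell, 13 of the 41 had a lower value than TET1, 33 than TET2 and 34 than DNMT3B. A fall of the size seen in the list was thus not particular to the maintenance genes. By flow cytometry, the study reported a larger share of A549 cells in G1 and a smaller one in S phase after BAP18 siRNA. Those cells were held without serum and then returned to normal medium before they were measured. In bulk RNA, fewer cells in S phase and less RNA per cell cannot be told apart, and the part of the cell cycle in the fall of these genes was not tested.

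Promoters from RefSeq (250 bases before to 50 bases after the start site, GRCh38.p14) were searched for the E2F motif, because E2F factors control many S-phase genes. All 9 genes matched, with 20 promoters in all. The words searched on both strands were TTTCGCGC and TTTGGCGC, and in these promoters no match shared bases with a match of another word searched. DNMT1, HELLS and UHRF1 were the members with a match, in 1 promoter each, against 382 of 27305 genes with a promoter (1.4%). The matches are shown with 11 bases on either side, read along the gene, with the motif in capitals. In DNMT1 (chr19:10194937-10194966, − strand) it begins 2 bases before the start site and is read on the opposite strand. In HELLS (chr10:94545701-94545730, + strand) it begins 76 bases before the start site, also on the opposite strand, and in UHRF1 (chr19:4909973-4910002, + strand) 160 bases before one of 3 start sites.
DNMT1: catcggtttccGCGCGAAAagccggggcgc
HELLS: aaccgcaagctGCGCCAAAtctcgcgcagc
UHRF1: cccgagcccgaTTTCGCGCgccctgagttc

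The 6 other members, of which TET1, TET2 and DNMT3B fell, held neither word in the promoters searched. The letters CCAAT, read by the factor NF-Y in many cell-cycle promoters, were found in UHRF1, HELLS, DNMT3B, TET1 and TET3, and in 39.7% of all genes. The CHR motif TTTGAA of late cell-cycle genes was found in DNMT3A and TET2, and in 18.2% of all genes. These matches describe the letters of the promoters, and the binding of any factor was not measured.

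Of the de novo methyltransferases, DNMT3A did not pass the test and DNMT3B fell. DNMT3A, at chr2:25227855-25342590 on the − strand, held 2432, 2310 and 2189 counts in siCtrl and 2302, 2963 and 1779 in siBAP18. The groups overlapped, with 45.7 to 49.7 CPM in siCtrl and 42.3 to 50.7 CPM in siBAP18. The log2 fold change was −0.054, with a 95% interval from −0.21 to 0.10 (adjusted p = 0.583). It was −0.00037 without siBAP18 replicate 1 and −0.14 without siBAP18 replicate 2 (adjusted p = 0.0929).

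DNMT3B, the methyltransferase of pericentromeric repeats, lies at chr20:32762385-32809356 on the + strand and was expressed at a far lower level. It held 210, 235 and 209 counts in siCtrl and 158, 183 and 166 in siBAP18. After scaling, siBAP18 replicate 3 at 4.09 CPM lay above siCtrl replicate 1 at 3.95 CPM, so that the groups overlapped. The fitted log2 fold change was −0.42 ± 0.145 (standard error), at an adjusted p of 0.0183. The adjusted p was 0.109 without siCtrl replicate 2 and likewise 0.109 without siBAP18 replicate 1, with log2 fold changes of −0.33 and −0.32. With each library left out in turn the value stayed between −0.57 and −0.32. The adjusted p was 0.0694 with the DESeq2 Wald test and 0.0781 to 0.173 in the 3 limma fits on RPKM, so that the call did not hold there.

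Among the erasers, the members moved in opposite directions. TET1, at chr10:68560656-68694482 on the + strand, was the least expressed of the 9 genes, with 155, 129 and 108 counts in siCtrl and 63, 70 and 52 in siBAP18. The lowest siCtrl library was at 2.31 CPM and the highest siBAP18 library at 1.28 CPM. Expression fell from 2.67 ± 0.316 to 1.21 ± 0.0637 CPM, with a log2 fold change of −1.14 ± 0.180 (standard error) and an adjusted p of 8.66e-06. With each library left out in turn, the value lay between −1.24 and −1.08. On log2(RPKM + 1), where so low a gene is compressed, it was −0.19.

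TET2, at chr4:105145875-105279816 on the + strand, held 579, 514 and 543 counts in siCtrl and 415, 519 and 274 in siBAP18. Although the raw counts overlap, the scaled values did not, at 10.9 to 11.6 CPM in siCtrl and 6.76 to 8.89 CPM in siBAP18. The fitted log2 fold change was −0.52 ± 0.101 (standard error), at an adjusted p of 1.30e-04. In 2 of the limma fits on RPKM, the adjusted p was 0.0508 and 0.0796.

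TET3, at chr2:73986404-74108176 on the + strand, was the only member that rose. Its counts were 1014, 907 and 832 in siCtrl and 1327, 1643 and 808 in siBAP18. In CPM every siBAP18 library was above every siCtrl library, but siBAP18 replicate 3 at 19.9 was close to siCtrl replicate 2 at 19.5. Expression went from 18.8 ± 0.885 to 24.2 ± 4.11 CPM, with a log2 fold change of 0.37 ± 0.0939 (standard error) and an adjusted p of 0.00202. The log2 fold change was 0.24 without siBAP18 replicate 2, the highest library, and 0.49 without siBAP18 replicate 3. The limma fits on RPKM gave adjusted p-values from 0.0935 to 0.205.

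**Figure D2:**
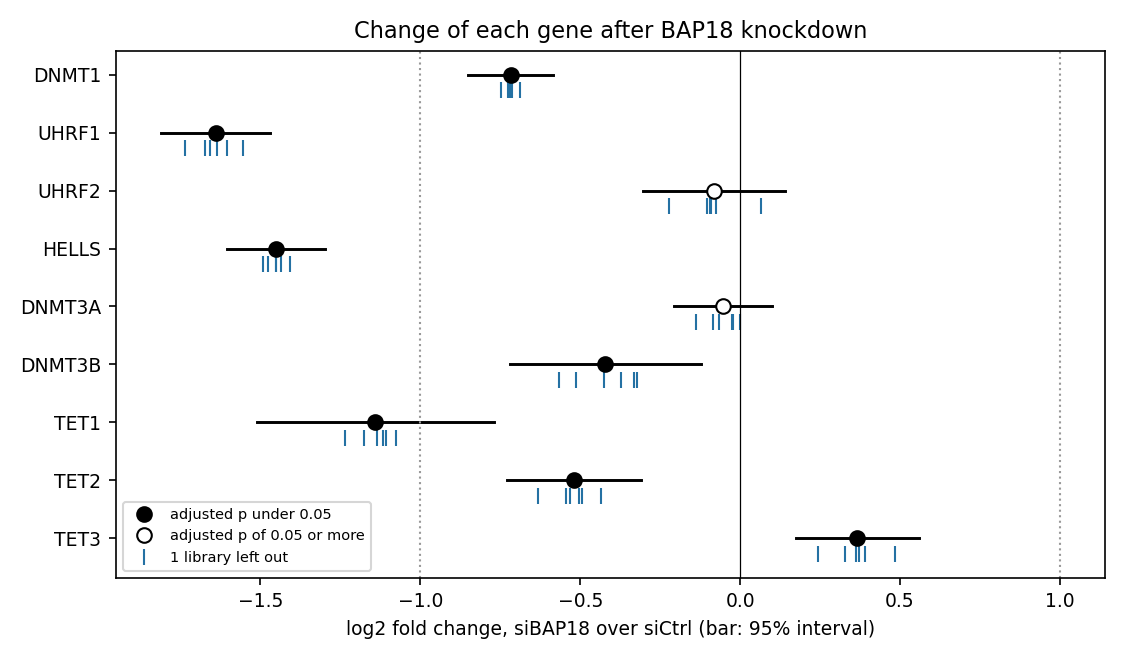
Log2 fold change of each gene, siBAP18 over siCtrl, from edgeR's quasi-likelihood fit of all 6 libraries (circles) with its 95% interval (bars). Filled circles have an adjusted p under 0.05, blue ticks are the values with 1 library left out, and dotted lines mark an absolute log2 fold change of 1. The intervals of UHRF1 and HELLS lie wholly below −1, that of TET1 spans −1.51 to −0.77, and those of UHRF2 and DNMT3A include 0.

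Levels of different genes were compared as RPKM, the count divided by the listed exon length in kilobases and by the library total in units of 1e6. In siCtrl the mean RPKM ran from 25.3 ± 0.263 for DNMT1 down to 0.287 ± 0.0347 for TET1, a span of 88.3-fold. UHRF1 followed DNMT1 at 9.97 ± 0.468 RPKM. HELLS at 4.10 ± 0.124 and DNMT3A at 3.94 ± 0.211 RPKM were not separated on this length, since their libraries overlapped. TET3 at 1.53, UHRF2 at 1.37, DNMT3B at 0.969 and TET2 at 0.678 RPKM came next, each with libraries that did not overlap those of its neighbour in this order.

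In siBAP18 cells the order was different. DNMT1 remained at the top with 15.4 ± 0.476 RPKM and TET1 at the bottom with 0.131 ± 0.00435 RPKM, a span of 118.1-fold. DNMT3A at 3.81 ± 0.478 RPKM now stood second, not separated from UHRF1 at 3.20 ± 0.514 on this length. TET3 at 1.98 ± 0.402, HELLS, with libraries from 1.36 to 1.64, and UHRF2 at 1.30 ± 0.311 RPKM followed, and in this order each overlapped the next. UHRF1 and HELLS, which in siCtrl stood above UHRF2 by a wide gap, had thus moved toward it.

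**Figure D3:**
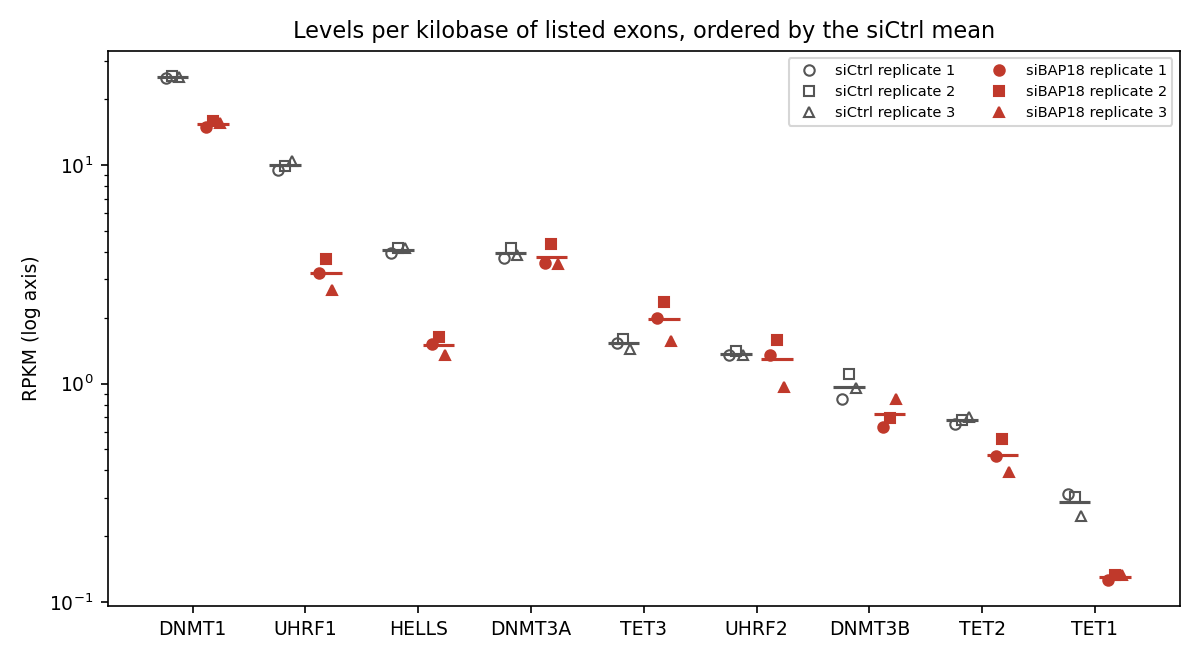
RPKM of each gene in each library on a log axis, ordered by the siCtrl mean. Open grey symbols are siCtrl, filled red symbols are siBAP18 and lines are group means. DNMT1 is highest and TET1 lowest in both groups. On this length HELLS overlaps DNMT3A in siCtrl and lies below it in siBAP18, where UHRF1 overlaps DNMT3A.

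The listed length of a gene is the union of the exons of all its transcripts, retained introns included, and affects these levels but not the fold changes. It was 1.00 to 2.87 times the longest protein-coding transcript of GENCODE 29, most for UHRF2 (9919 against 3452 bases) and HELLS (10148 against 4987). Per kilobase of that transcript, a setting chosen after seeing the data, the siCtrl level was 8.34 for HELLS and 4.98 for DNMT3A, and their libraries no longer overlapped. In siCtrl, UHRF2 (3.94) then stood above TET3 (1.65). The mean of TET2 (1.10) was above that of DNMT3B (1.03), but their libraries overlapped. In siBAP18, DNMT3A (4.82) no longer overlapped UHRF1 (3.83), which overlapped UHRF2 (3.72). UHRF2 stood above HELLS (3.06), which it overlapped, and HELLS above TET3 (2.13), which it did not.

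Shares within each family show how the balance between related genes differed. UHRF1 made up 87.5%, 87.6% and 88.6% of the summed RPKM of UHRF1 and UHRF2 in siCtrl, and 70.5%, 70.2% and 73.6% in siBAP18. The difference of the means, siBAP18 minus siCtrl, was −16.5 percentage points, and the groups did not overlap. Per kilobase of the longest protein-coding transcript, UHRF1 and UHRF2 were at 11.9 and 3.94 in siCtrl and 3.83 and 3.72 in siBAP18. The size of these shares thus depends on the length used. DNMT1 made up 83.8% ± 0.807 of the summed RPKM of the DNA methyltransferases in siCtrl and 77.3% ± 1.29 in siBAP18. DNMT3A made up 13.0% ± 0.457 in siCtrl and 19.0% ± 1.61 in siBAP18, and DNMT3B 3.20% ± 0.364 and 3.65% ± 0.558. Of the summed RPKM of DNMT3A and DNMT3B alone, DNMT3B held 19.7% ± 1.30 in siCtrl and 16.1% ± 2.98 in siBAP18, and here the groups overlapped.

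Among the TET genes, the share of TET3 was higher and those of TET1 and TET2 were lower in siBAP18. TET3 made up 61.5%, 62.1% and 60.3% of their summed RPKM in siCtrl and 77.2%, 77.4% and 74.8% in siBAP18, a mean difference of 15.2 percentage points. TET2 went from 27.2% ± 1.82 to 18.4% ± 0.469, and TET1 from 11.5% ± 1.05 to 5.18% ± 1.04. The groups did not overlap for any of these 3 shares. Over the 8 shares compared, the exact two-sided permutation p was 0.10 for 6, the smallest value that 20 divisions of the libraries can give, and 0.20 and 0.40 for the shares of DNMT3B. After Benjamini-Hochberg adjustment over the 8 shares, exact p-values were 0.133 to 0.40, so that this design could not pass 0.05.

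**Figure D4:**
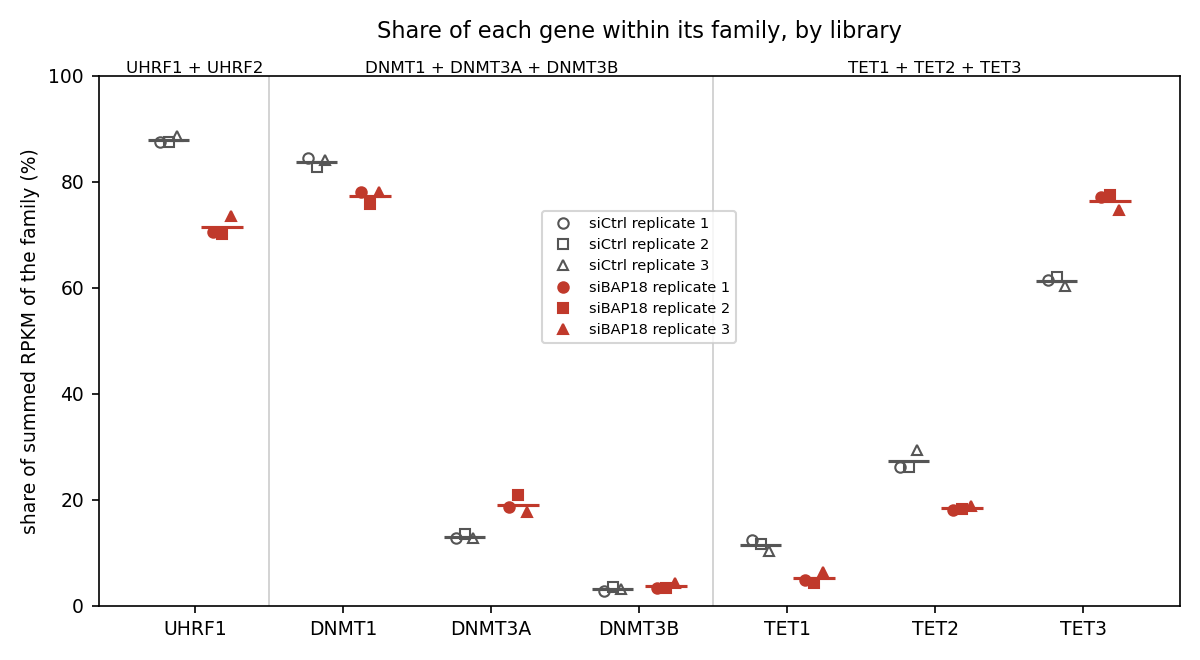
Share of each gene in the summed RPKM of its family, in percent, for each library. Open grey symbols are siCtrl, filled red symbols are siBAP18 and lines are group means. UHRF1 lies at 87.5% to 88.6% in siCtrl and 70.2% to 73.6% in siBAP18, and TET3 lies higher and TET1 and TET2 lower in every siBAP18 library.

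To show which other genes varied alike, the 3 genes with the closest profile over the 6 libraries were found for each member, by the Euclidean distance of log2 CPM centred on siCtrl, among genes with a mean log2 CPM of at least 3. For UHRF1 these were BRCA1, a repair protein (distance 0.194), MCM10, a replication factor (0.217), and SLC6A6 (0.221). HELLS was closest to KIF11, a mitotic kinesin (0.0918), ANLN, which acts in cytokinesis (0.126), and BRI3BP (0.127). The genes nearest to DNMT1 were ALAD, CD2AP and the mitotic kinesin KIFC1, at distances of 0.0499 to 0.0621. TET1 was nearest to ID1, ALDOC and PPME1 (0.173 to 0.203), and TET2 to UBE2G2, CRYZ and MED1 (0.0695 to 0.089). Those nearest to TET3 were UBE2Q2P1, SCRN1 and ARHGEF28 (0.131 to 0.14). For the genes with small or unsteady changes, the nearest were GGPS1, CTD-2047H16.4 and C1QTNF6 for DNMT3A (0.044 to 0.0634), WDR3, CAPN7 and APPBP2 for UHRF2 (0.0961 to 0.112), and TBC1D2B, BCO1 and FCGBP for DNMT3B (0.196 to 0.22). With 9928 or 9929 genes searched, some are near any profile by size of change alone.

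Of 8 genes that work with the maintenance machinery, 6 fell, 0 rose and 2 did not pass the test, with a median log2 fold change of −0.65. Beside this list and those that follow, 25.1% of all genes tested fell and 24.5% rose. CDCA7, which activates HELLS, was at a log2 fold change of −1.22 (adjusted p = 1.88e-11). PCNA, the replication clamp that holds DNMT1 at the fork, was at −0.86 (adjusted p = 6.49e-11), and KIAA0101, which encodes the clamp-associated protein PCLAF, at −0.87 (adjusted p = 2.52e-08). LIG1, the replicative ligase, was at −0.71 (adjusted p = 7.01e-09). ZBTB24, a transcription factor of CDCA7, fell by 0.29 in log2 units (adjusted p = 0.0198). USP7, a deubiquitinase of DNMT1 and UHRF1, was at a log2 fold change of −0.18 (adjusted p = 0.0638), and DMAP1, a DNMT1-binding protein, one of 0.098 (adjusted p = 0.265). PCNA and CDCA7 are also in the S-phase list.

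Partners of de novo methylation numbered 7, of which 6 were tested, 4 fell and 1 rose, with a median log2 fold change of −0.39. QSER1, which guards promoters against DNMT3 enzymes, fell by 1.09 in log2 units (adjusted p = 1.47e-11), and ATRX, a chromatin remodeler, by 0.75 (adjusted p = 5.47e-09). The histone methyltransferases WHSC1 (log2 fold change −0.41, adjusted p = 1.28e-05) and SETD2 (−0.37, adjusted p = 1.24e-04) fell as well. DAXX, the histone chaperone that binds ATRX, rose by 0.29 (adjusted p = 0.00294). DNMT3L, the inactive cofactor of DNMT3A in germ cells, held at most 6 counts in any library and was not tested.

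Downstream of the TET enzymes, oxidized cytosine is cut out by DNA repair. Of 19 genes of this repair and of the supply and control of TET activity, 9 fell and 2 rose, with a median log2 fold change of −0.10. TDG, the glycosylase that removes the oxidized bases, was at a log2 fold change of 0.070 (adjusted p = 0.51). SMUG1, NEIL1, NEIL2, APEX1 and LIG3 of the repair did not pass the test either (adjusted p from 0.212 to 0.767). The genes that rose were also of the repair, XRCC1 (log2 fold change 0.46, adjusted p = 3.62e-06) and POLB (0.26, adjusted p = 0.0372). NEIL3, a glycosylase of S phase, fell by 1.85 in log2 units (adjusted p = 2.59e-13), and MBD4 by 0.61 (adjusted p = 6.67e-07). OGT, a glycosyltransferase that binds TET proteins, fell by 0.88 (adjusted p = 1.21e-10). IDH1, which makes the cosubstrate 2-oxoglutarate, was at a log2 fold change of −0.58 (adjusted p = 9.38e-07), and its mitochondrial counterpart IDH2 one of 0.18 (adjusted p = 0.0561).

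The proteins that read methylated CpG sites moved mostly the other way. Of 10 readers, 6 rose and 3 fell, with a median log2 fold change of 0.37. MBD1 (log2 fold change 0.61, adjusted p = 6.67e-08) and MBD6 (0.75, adjusted p = 9.25e-08) were among those that rose. ZBTB33, which encodes Kaiso, fell by 0.77 in log2 units (adjusted p = 3.91e-06), as did MBD4, a reader that is also a glycosylase.

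Histone H3 lysine 9 methylation, to which UHRF1 binds, showed a mixed picture. Of 10 of its writers and readers, 4 fell and 1 rose, with a median log2 fold change of −0.15. The heterochromatin proteins CBX3 (log2 fold change −0.70, adjusted p = 3.04e-09) and CBX5 (−0.64, adjusted p = 9.86e-08) fell, as did the methyltransferase SUV39H2 (−0.63, adjusted p = 0.00172) and the corepressor TRIM28 (−0.22, adjusted p = 0.0128). CBX1, the other heterochromatin protein of the list, was at a log2 fold change of 0.036 (adjusted p = 0.702). SUV39H1 was at a log2 fold change of −0.23 (adjusted p = 0.0593), and EHMT1 rose by 0.22 (adjusted p = 0.00624).

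Methyl groups come from S-adenosylmethionine. Of 19 genes of its cycle, 17 were tested, 9 fell and 2 rose, with a median log2 fold change of −0.23. MAT2A, which makes S-adenosylmethionine in most tissues, fell by 0.53 in log2 units (adjusted p = 2.27e-07), whereas AHCY, which clears its product, was at a log2 fold change of 0.010 (adjusted p = 0.925). AHCYL1, an AHCY-like protein, fell by 0.88 (adjusted p = 7.59e-11) and SHMT1 of the folate cycle by 0.62 (adjusted p = 6.54e-08). CBS, which diverts homocysteine from the cycle, rose by 1.15 (adjusted p = 7.16e-08).

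**Figure D5:**
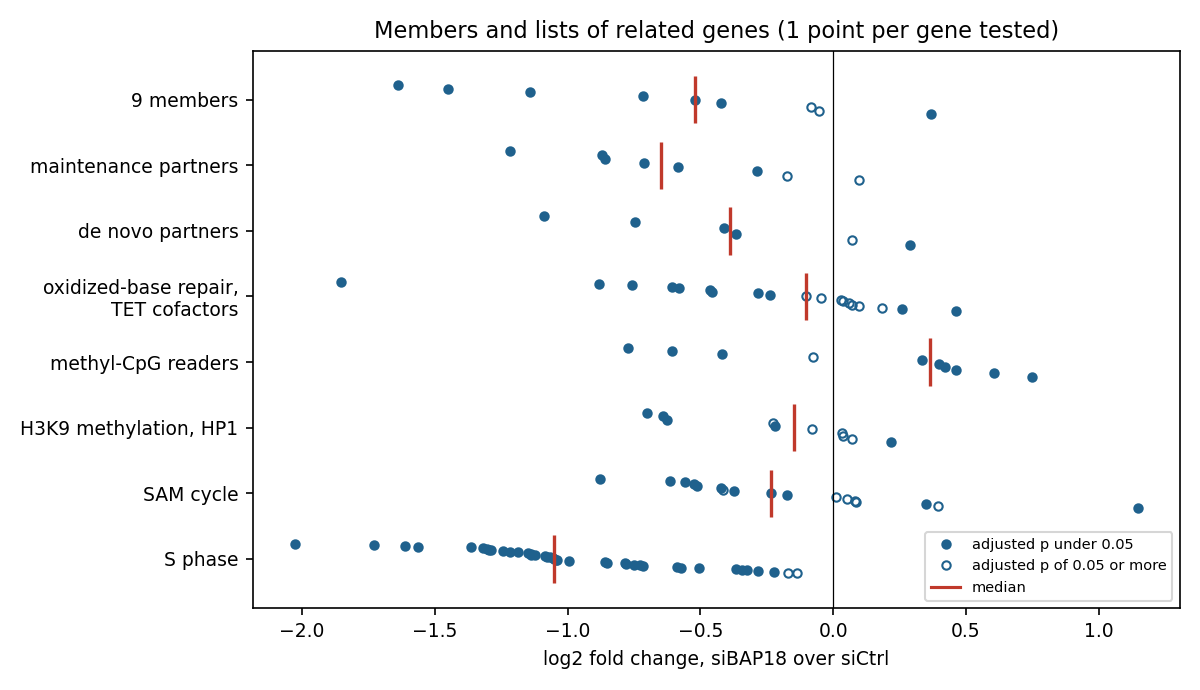
Log2 fold change, siBAP18 over siCtrl, of each gene tested among the 9 members and the lists of related genes. Filled points have an adjusted p under 0.05, open points do not, and red lines are medians. Maintenance partners (median −0.65) and S-phase genes (−1.05) lie mostly to the left, and methyl-CpG readers (0.37) mostly to the right. Some genes stand in more than 1 list.

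Many germline genes are kept silent by promoter methylation in somatic cells. Of 32 on the list, 25 were in the table and 9 passed the filter on low counts, of which 3 rose, 0 fell and 6 did not pass the test. Among all genes tested, 24.5% rose and 25.1% fell. HORMAD1, MAGEA3 and MAGEA6 were expressed in both groups, at 205 to 299, 155 to 256 and 266 to 454 counts. PIWIL2, of the piRNA pathway, held 6, 11 and 9 counts in siCtrl and 82, 54 and 34 in siBAP18. It passed the filter only through the siBAP18 libraries, where it was high, and had to differ, so that its rise and the count of 3 are given as a description. STK31, a testis kinase, was at 18 to 28 and 32 to 46 counts (log2 fold change 0.87, adjusted p = 0.0215). MAGEA6 rose by 0.33 (adjusted p = 0.0112), but its reads cannot be told apart with certainty from those of its near-identical copy MAGEA3 (0.21, adjusted p = 0.205). MAGEC1 held 0 counts in each siCtrl library, which allows up to 3, and 8, 14 and 12 in siBAP18, and it was not tested. DNA methylation itself was not measured in these samples.

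Words that pair with guide bases 2 to 8 of the study's siRNAs were searched in the 3′ UTRs of the members, from the protein-coding transcripts of GENCODE 29, because such matches can lower a transcript without regard to BAP18. The words were AATCACA for siBAP18#1, AAGATTC for siBAP18#2, ACTCAAC for siBAP18#3 and TGTCACG for siCtrl. HELLS, DNMT1, TET1, DNMT3B, UHRF2 and TET3 held none of them. UHRF1 held the word of siBAP18#1 once, at chr19:4961976-4961982 on the + strand. TET2 held the words of siBAP18#1 and siBAP18#3 once each, and DNMT3A those of siBAP18#2 and siBAP18#3 once each. The longest 3′ UTR searched was 6424 bases in DNMT3A, 5331 in TET2 and 1351 in UHRF1, and 6000 in TET3, which held no word. A long 3′ UTR holds such short words more often, and their share over the 3′ UTRs of all genes was not counted. The sites in members that fell are shown with 11 bases on either side and the word in capitals. They span chr19:4961965-4961993 in UHRF1, chr4:105241950-105241978 in TET2 for siBAP18#1 and chr4:105277789-105277817 in TET2 for siBAP18#3, all on the + strand. The part of these matches in the results was not tested.
UHRF1, siBAP18#1: gggatattttaAATCACAtacctgcagac
TET2, siBAP18#1: ttttcgctatcAATCACAggtatacaagt
TET2, siBAP18#3: gcatgctgcagACTCAACaaagctagttc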

How the data were processed

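RNA of 6 A549 libraries was poly(A)-selected and sequenced as pairs of strand-marked reads, per the labels. The authors deposited counts per gene, whole numbers without normalization, and RPKM values, which equalled the count over the listed exon length in kilobases and the library total in units of 1e6 (largest relative difference 1.3e-13). The submitters' notes list hg38 and GRCm38; the 9 genes had the coordinates of GENCODE 29 on GRCh38. The aligner, counter and use of strand are not given in the sources used here. After filterByExpr, counts were normalized by TMM and compared in edgeR 4.0.16 (R 4.3.3), without the replicate number, and the standard error is the log2 fold change over the square root of F. Residuals of same-numbered libraries had a Pearson r of −0.017, 0.051 and 0.0038, which shows no pairing but cannot exclude it. No pair of replicates was a copy (chi-square per degree of freedom 3.94 to 4.57 in siCtrl and 10.1 to 23.3 in siBAP18). Where cultures were not separate, p-values measure only the spread between these libraries.

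The members and gene lists were chosen with earlier results of these data known, and the lists were compiled by hand. Named genes are the members, C17orf49, genes sharing exons with a member, nearest profiles, up to 4 genes of each list with the smallest adjusted p, and a fixed set of partners named whatever their values. Some genes that this rule or the marker lists would name are not reported here. TRIM28, DAXX, DMAP1, XRCC1, POLB, SMUG1, NEIL1, NEIL2, APEX1, LIG3, CBX1, HORMAD1, MAGEA3 and MAGEC1 were named after their values were seen. Alternatives were other scalings, filters, DESeq2 1.42.0, limma 3.58.1 on log2(RPKM + 1) and log2(RPKM + 0.1), a replicate block and each library left out. Shares used exact permutation tests. Sequences were read with Python 3.11.15 and pandas 2.3.3, and plots drawn with matplotlib 3.10.9. The steps across genes were tested on simulated data.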

Additional observations from a re-analysis of the deposited data

How the results depend on the processing

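UHRF1, HELLS, DNMT1 and TET1 fell at an adjusted p under 0.05 in all alternatives that tested them, 16 for the first 3 and 14 for TET1, which a mean RPKM under 0.5 left out of 2. The number also past an absolute log2 fold change of 1 was 3, and 2 in each of the 3 limma fits, where TET1 was not tested or was at −0.19. The number of members that fell was 6 in the main fit, 5 or 6 with 1 library left out, and 3 with limma on log2(RPKM + 0.1). The number that rose, 1, was 0 in each of the 3 limma fits on RPKM. The log2 fold change of UHRF2 ranged from −0.22 to 0.065 with 1 library left out and changed sign only without siBAP18 replicate 3, and neither UHRF2 nor DNMT3A passed in any alternative. With the replicate block, 6 members fell and 1 rose, as in the main fit, and no call changed; UHRF1 was at −1.64. From summed counts in place of RPKM, the difference in share was −22.6 percentage points for UHRF1 within the UHRF genes, −4.42 for TET1 and −10.8 for TET2 within the TET genes. Per kilobase of the longest protein-coding transcript, chosen after seeing the data, these were −24.15, −5.02 and −10.9, and DNMT1 within the methyltransferases was at −5.05. Those shares move by construction, since each gene is divided by another length. The causes of the other changes were not tested. Depth limits TET1, with 52 to 155 counts a library, DNMT3B, with 158 to 235, and the germline genes.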
